A study of Homo sapiens with 22 samples.

Results

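The second of the JQ1 experiments in this series set MDA-MB-231 cells given 0.5 µM JQ1 for 3 days against CTRL cells kept for 3 days. It comprises 4 of the 22 libraries of the series, JQ1 replicates 1 and 2 and CTRL replicates 1 and 2, and was delimited by its deposited table and by the genes listed above 0 FPKM in all 4 libraries. Of 14954 genes in that table, which are those with a result in its deposited test columns, 7702 met this condition. MDA-MB-231 is a triple-negative human breast cancer line with mesenchymal features, and JQ1 is a small molecule that occupies the bromodomains of the BET proteins. The labels give the wild-type genotype and the same growth medium for both groups, state no vehicle for CTRL, and leave unsaid whether replicates were grown apart. The p-values therefore reflect no more than how far these libraries differ, which may be technical. The title of the series concerns BET inhibition, transcription at large and the m6A writer complex. A first JQ1 experiment, with JQ1 libraries a and b and DMSO replicates 1 and 2 in another deposited table, used the same line, dose and time. Both tables name their JQ1 columns alike, and the labels list 2 pairs of JQ1 samples. The columns were taken for different libraries because their values differ, and which pair of samples belongs to which table rests on how the titles are written. The first experiment is set beside the second below.

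BET proteins, BRD2 and BRD3 among them, bind acetylated lysines on histones and bring elongation factors, among them the kinase P-TEFb, to promoters and enhancers. HEXIM1 holds P-TEFb inactive in a complex with the 7SK RNA. A rise of HEXIM1 mRNA is a widely used sign that a BET inhibitor has reached its target, and a rise of BRD2 mRNA often accompanies it. FPKM values are scaled to the total of each library, so a change in the total RNA of a cell cannot be seen in them, and in bulk RNA fewer expressing cells and less RNA per cell cannot be told apart.

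The 4 libraries differed from those of the first experiment in several measures before any comparison. Of the 14954 genes, 22.6% and 35.4% were listed at 0 in JQ1 replicates 1 and 2, and 35.4% and 23.3% in CTRL replicates 1 and 2. In the first experiment the same genes were listed at 0 in 1.82% to 2.27% per library. Of 30 commonly expressed genes, 1 was listed at 0, in JQ1 replicate 1 and CTRL replicate 1. RN7SL1, the RNA of the signal recognition particle, stood at 42965 to 50061 FPKM in JQ1 and 37435 to 52947 FPKM in CTRL, or 8.79% to 11.6% of the FPKM of a library, against 105 to 162 FPKM in the first experiment. SNORD3A, a small nucleolar RNA, stood at 7139 and 6219 FPKM in JQ1 and 3557 and 6523 FPKM in CTRL, against 0.268 to 7.45 FPKM there. Both RNAs overlapped between JQ1 and CTRL. The same deposited table holds 2 further libraries, MW_JQ1, which are not compared here. In these, 2.05% and 1.85% of the genes were listed at 0, with RN7SL1 at 23.8 and 57.6 FPKM and SNORD3A at 0.0869 and 0.217 FPKM. The labels describe more than 1 library preparation without assigning samples to them. The files give no counts, so the depth of a library is unknown.

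Replicate libraries lay far apart. On the log2(FPKM + 1) scale the median gene differed 1.64-fold between the JQ1 libraries and 1.70-fold between the CTRL libraries, and 36.7% and 38.9% of genes differed at least 2-fold within JQ1 and within CTRL. Over the shared genes of the first experiment the median difference was 1.07-fold between JQ1 libraries and 1.08-fold between DMSO libraries, with 0.59% and 0.695% of genes at least 2-fold apart. JQ1 replicate 1 correlated with JQ1 replicate 2 at r = 0.789 across genes and with CTRL replicate 2 at r = 0.793, and the CTRL libraries correlated with each other at r = 0.765. These coefficients describe genes within libraries and are not tests. A JQ1 library was therefore as close to a CTRL library as to its own replicate, and the same 2 libraries, JQ1 replicate 1 and CTRL replicate 2, had the fewest genes at 0.

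**Figure D1:**
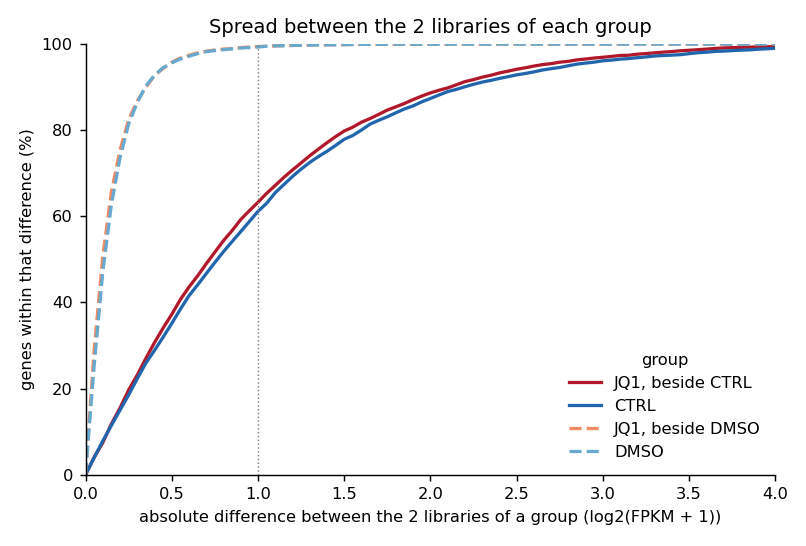
Share of the 7629 genes present in both experiments (y axis, percent) whose 2 libraries of a group differ by no more than the amount on the x axis (absolute difference of log2(FPKM + 1)), for JQ1 and CTRL (solid) and for JQ1 and DMSO of the first experiment (dashed). The dotted line marks a 2-fold difference, within which lie 63.3% of genes in JQ1, 61.1% in CTRL, 99.4% in JQ1 and 99.3% in DMSO of the first experiment.

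No gene passed the threshold for JQ1 against CTRL. With limma on log2(FPKM + 1), fitted to the 4 libraries over 7702 genes, 0 genes (0%) had a Benjamini-Hochberg adjusted p under 0.05, and 745 (9.67%) had an unadjusted p under 0.05, 264 of them higher and 481 lower in JQ1. The count was 13 without CTRL replicate 1 and 52 without CTRL replicate 2, with the lone CTRL library taken to vary like the JQ1 ones, and 0 without either JQ1 library. The median standard error of a log2 fold change was 0.83, against 0.10 for the shared genes in the first experiment, where 5523 of 20404 genes (27.1%) passed the same threshold, 2273 higher (11.1%) and 3250 lower (15.9%) in JQ1 than in DMSO, a count that fell to between 1228 and 2674 when any of the 4 libraries there was left out. Both JQ1 libraries lay above both CTRL libraries for 1305 genes (16.9%), below them for 1819 genes (23.6%), and the groups overlapped for 4578 genes (59.4%). A difference of at least 2-fold was estimated for 2467 genes (32%). The median log2 fold change over all genes was -0.12. Of the genes whose groups did not overlap, 41.8% were higher in JQ1 as deposited, 51.2% after scaling with TMM factors and 51.4% after scaling to equal medians, which moved the median log2 fold change by 0.13 and 0.14, so the surplus of lower genes depends on the scaling. Below, "above" and "below" mean that both JQ1 libraries lay above or below both CTRL libraries. List medians are given minus the median of all genes. The shares of all genes to set beside each list are 16.9% above, 23.6% below and 9.67% at an unadjusted p under 0.05.

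Markers of BET inhibition lay in the known direction without passing the test. HEXIM1 (ENSG00000186834, hg38 chromosome 17, 45148502 to 45152101, plus strand) was at 85.3 and 77.0 FPKM in JQ1, against 63.4 and 52.0 FPKM in CTRL. Both JQ1 values were higher, with a log2 fold change of 0.49 ± 0.44 (SE, n = 2 libraries per group, limma adjusted p = 0.761). BRD2 (ENSG00000204256, chromosome 6, 32968660 to 32981505, plus strand) was at 227 and 152 FPKM in JQ1, against 129.8 and 57.0 FPKM in CTRL, a log2 fold change of 1.1 ± 0.47 (SE, limma adjusted p = 0.498). The first experiment had HEXIM1 at 73.8 and 76.7 FPKM in JQ1, against 26.5 and 29.4 FPKM in DMSO, and BRD2 at 224 and 215 FPKM in JQ1, against 64.9 and 64.6 FPKM in DMSO, both past the limma threshold (adjusted p = 0.00305 and 0.00151). The JQ1 levels of HEXIM1 were thus near each other in the 2 experiments, while its CTRL level stood above its DMSO level. The tables may have been normalized separately, and no level was tested between them.

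Other genes that BET inhibitors raise in published work lay in both directions. TXNIP, an inhibitor of thioredoxin, was at 373 and 376 FPKM in JQ1, against 168 and 162 FPKM in CTRL (log2 fold change 1.18 ± 0.31, SE, limma adjusted p = 0.344). H2AC6, a histone H2A gene, was at 158 and 225 FPKM in JQ1, against 14.7 and 26.2 FPKM in CTRL. SERPINI1, which encodes the serine protease inhibitor neuroserpin, was at 13.2 and 27.8 FPKM in JQ1 and was listed at 0 in both CTRL libraries. Of this list, 10 of 12 genes were kept, with 5 above and 3 below, and the 3 below were the histone genes H1-2, H2BC12 and H2BC21. The 2 members with the highest mean were H1-2 and H2BC5, the second of which stood at 619 and 738 FPKM in JQ1 and 838 and 549 FPKM in CTRL, with overlapping groups. In the first experiment 10 of the 11 members tested were higher in JQ1 than in DMSO past the limma threshold. The list was made with earlier results of these data known, so this count is not independent of them.

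BRD3 and the proteins that work with BET proteins gave no difference past the threshold. BRD3 was at 19.6 and 3.61 FPKM in JQ1 and 8.81 and 20.3 FPKM in CTRL, with overlapping groups. Of 14 listed BET proteins and chromatin partners 11 were kept, 3 above (BRD2, the acetyltransferase CREBBP and the remodeller ATPase SMARCA4) and 1 below. Of 28 factors of P-TEFb, 7SK and elongation 25 were kept, 4 above (16%) and 2 below (8%). The share above was near the 16.9% of all genes, and that below was under their 23.6%. The elongation factor ELL2 was at 72.4 and 58.3 FPKM in JQ1, against 31.3 and 27.6 FPKM in CTRL, and LARP7, which protects 7SK RNA, at 38.2 and 46.5 FPKM in JQ1, against 25.6 and 27.7 FPKM in CTRL. SUPT5H, with HEXIM1 the highest of that list, overlapped between the groups at 64.3 and 101 FPKM in JQ1 and 57.1 and 66.2 FPKM in CTRL. Of 31 subunits of RNA polymerase II and general factors 26 were kept, 5 above and 5 below, shares near those of all genes. The catalytic subunit POLR2A was among those above, at 74.8 and 71.3 FPKM in JQ1 and 35.9 and 53.2 FPKM in CTRL, and in the first experiment it was higher in JQ1 past the limma threshold (log2 fold change 0.98, adjusted p = 0.00314).

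The m6A writer complex, which methylates adenosine in RNA, could hardly be read in these libraries. METTL3, its catalytic subunit, was at 11.8 FPKM and listed at 0 in JQ1, against 31.2 and 1.18 FPKM in CTRL, and so fell outside the genes kept. Its partner METTL14 was at 4.37 and 7.79 FPKM in JQ1 and 3.56 and 13.7 FPKM in CTRL. WTAP, the regulatory subunit, was at 25.5 and 13.5 FPKM in JQ1 and 39.6 and 22.4 FPKM in CTRL. RBM15B, an RNA-binding adaptor, was at 22.2 and 15.2 FPKM in JQ1 and 22.1 and 10.5 FPKM in CTRL. The 7 subunits kept of 8 all overlapped between the groups as deposited, and 1 was above under each of the other scalings. The 95% interval of the METTL14 log2 fold change ran from -2.45 to 1.95, so that the fall seen in the first experiment (log2 fold change -0.87, limma adjusted p = 0.0163) lies inside it. Of 14 erasers and readers 11 were kept, 3 above (27.3%) and 2 below (18.2%), against 16.9% and 23.6% of all genes.

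MYC and other genes that BET inhibitors lower in published work were too few among the genes kept to describe as a group. MYC was at 14.4 and 35.5 FPKM in JQ1, against 35.8 and 45.4 FPKM in CTRL, a log2 fold change of -0.80 ± 0.64 (SE, limma adjusted p = 0.718). Of the 12 listed genes 5 were kept, FOSL1 and MYC below and CCND1 above, a split that turned to 1 below and 2 above under either other scaling. FOSL1, an AP-1 subunit, was at 46.3 and 9.94 FPKM in JQ1, against 68.0 and 83 FPKM in CTRL. CCND1, the G1 cyclin D1, was at 383 and 441 FPKM in JQ1, against 359.8 and 341 FPKM in CTRL. E2F2, an S phase transcription factor, was listed at 0 in both JQ1 libraries and was at 8.52 and 2.77 FPKM in CTRL.

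Genes of cell division lay below in JQ1 for most of those kept, though 0 passed the limma test. Of 38 mitosis and G2/M genes 27 were kept, 21 were below and 0 above, against 23.6% and 16.9% of all genes, and 16 of the 27 had an unadjusted p under 0.05. Their median log2 fold change was -1.81 relative to all genes. Under TMM factors 21 were below and under equal medians 18, with 0 above in both. UBE2C, the ubiquitin-conjugating enzyme of the anaphase-promoting complex, was at 8.02 and 1.04 FPKM in JQ1, against 132 and 94.2 FPKM in CTRL, and its log2 fold change of -4.71 ± 0.82 (SE, limma adjusted p = 0.152) was among the deepest of all genes. CCNB1, cyclin B1, was at 28.5 and 12.8 FPKM in JQ1, against 241 and 80.6 FPKM in CTRL. The spindle factor TPX2 was at 18 and 16 FPKM in JQ1, against 73.4 and 95 FPKM in CTRL, and the kinase AURKA at 1.72 and 1.37 FPKM in JQ1, against 26.4 and 32.0 FPKM in CTRL. CKS2, a CDK subunit and the highest of the list, overlapped between the groups at 84.8 and 140.5 FPKM in JQ1 and 118 and 126 FPKM in CTRL. Of the 38 genes, 30 were lower in JQ1 than in DMSO past the limma threshold and 0 higher.

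Of 41 S phase genes 25 were kept, 13 below, 1 above and 11 overlapping, and 0 passed the limma test while 7 had an unadjusted p under 0.05. Their values had a median of -0.89 relative to all genes. Under either other scaling 11 were below and 1 above. PCNA, the DNA polymerase clamp, was at 65.4 and 80.0 FPKM in JQ1, against 189 and 127 FPKM in CTRL, and TYMS, thymidylate synthase, at 77.4 and 61.1 FPKM in JQ1, against 139 and 146 FPKM in CTRL. For UHRF1, which guides maintenance DNA methylation, the values were 3.97 and 4.91 FPKM in JQ1, against 23.4 and 27.9 FPKM in CTRL. Of 25 genes of homologous recombination and Fanconi repair 13 were kept, 4 below and 0 above. Their share below, 30.8%, was near the 23.6% of all genes, and 3 were below under equal medians. MYBL2, a cell cycle transcription factor, was listed at 0 in both JQ1 libraries and was at 25.6 and 20.3 FPKM in CTRL. In the first experiment 36 of 41 S phase genes and 12 of 25 repair genes were lower past the limma threshold, and 0 of either list higher.

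**Figure D2:**
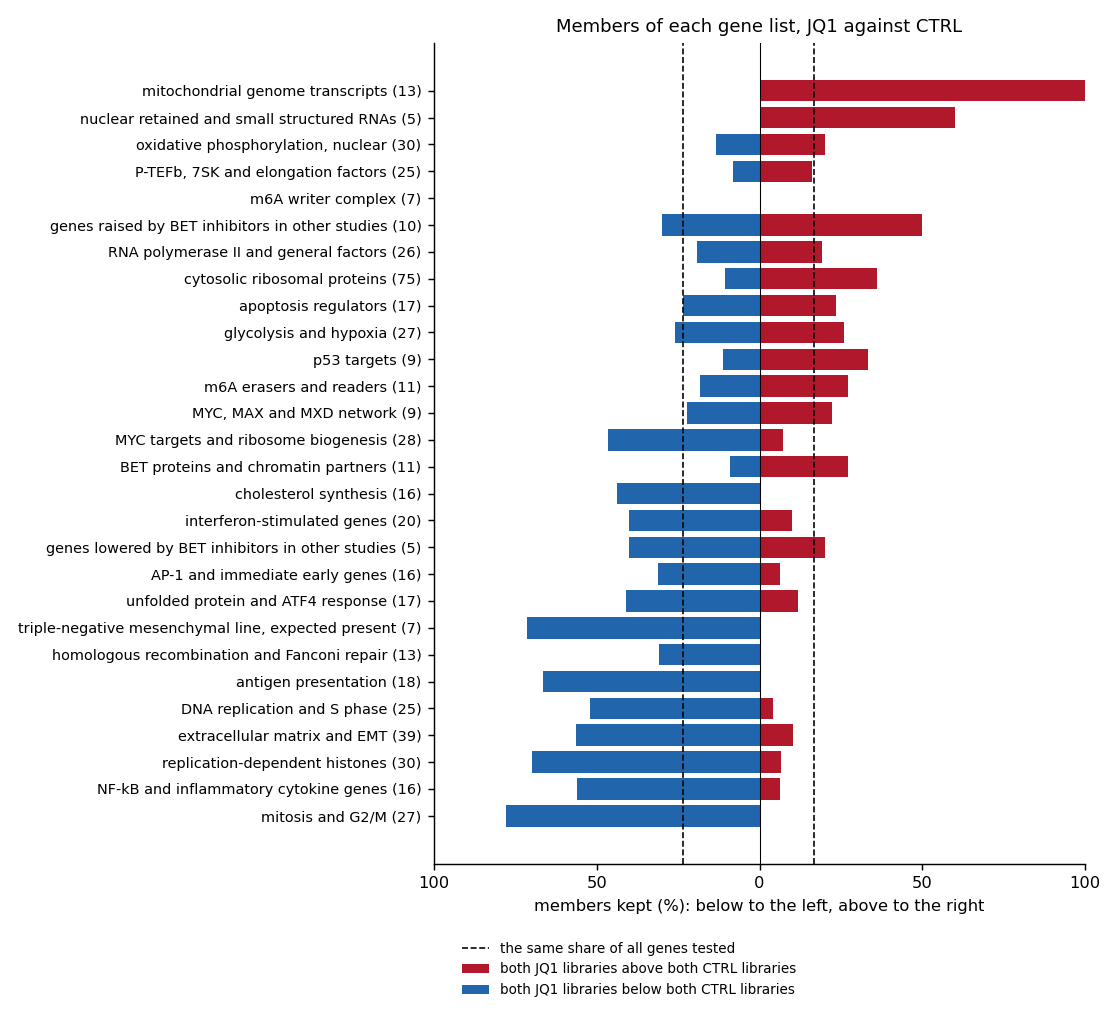
Share of the members kept of each gene list drawn (x axis, percent, number kept in brackets) whose JQ1 libraries both lie above (right) or below (left) both CTRL libraries, with lists ordered by their median log2 fold change. Dashed lines mark the same shares over all 7702 genes, 16.9% above and 23.6% below. Among the lists drawn, mitosis and G2/M genes are at the low end with 21 of 27 below. The 13 mitochondrial genome transcripts, all above, are at the high end. Not drawn are the commonly expressed genes and the markers of luminal epithelium, haematopoietic cells, and fibroblasts and endothelium.

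Of 34 NF-kB and inflammatory cytokine genes 16 were kept, 9 below, 1 above and 6 overlapping, with a median of -1.04 relative to all genes. Of these, 0 passed the limma test while 6 had an unadjusted p under 0.05. IL6, a cytokine, was at 2.99 and 0.485 FPKM in JQ1, against 62.0 and 64.6 FPKM in CTRL (log2 fold change -4.72 ± 0.86, SE, limma adjusted p = 0.169). The neutrophil chemokine CXCL8 was at 13.7 and 0.382 FPKM in JQ1, against 63.0 and 56.0 FPKM in CTRL. CSF1, a macrophage growth factor and the highest of the list, was at 127 and 116 FPKM in JQ1, against 239 and 264 FPKM in CTRL. NFKBIA, the inhibitor that NF-kB itself induces, overlapped at 106 and 40.6 FPKM in JQ1 and 64.5 and 122 FPKM in CTRL. The gene above was BIRC3, an inhibitor of apoptosis, at 4.38 and 2.32 FPKM in JQ1 and 0.0309 and 1.83 FPKM in CTRL. Against DMSO, 23 of 30 genes of this list were lower past the limma threshold, among them IL6 (log2 fold change -3.52, adjusted p = 0.00325), CXCL8 (-3.38, adjusted p = 0.000525) and BIRC3 (-0.73, adjusted p = 0.0116).

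Of 53 extracellular matrix and EMT genes 39 were kept, 22 below, 4 above and 13 overlapping, and 0 passed the limma test while 16 had an unadjusted p under 0.05, with a median of -1.01 relative to all genes. TGM2, a transglutaminase that crosslinks matrix proteins, was at 11.9 and 16.3 FPKM in JQ1, against 141 and 128 FPKM in CTRL (log2 fold change -3.18 ± 0.51, SE, limma adjusted p = 0.113). TIMP3, a tissue inhibitor of metalloproteinases, was at 154 and 186 FPKM in JQ1, against 632 and 607 FPKM in CTRL. Fibronectin, encoded by FN1, was at 29.1 and 43.1 FPKM in JQ1, against 177 and 164 FPKM in CTRL, and the urokinase gene PLAU at 16 and 20.4 FPKM in JQ1, against 72.8 and 98.9 FPKM in CTRL. CCN2, a matricellular growth factor, was one of the 4 above, at 683 and 691 FPKM in JQ1 and 295 and 235 FPKM in CTRL. The intermediate filament gene VIM and the inhibitor TIMP1, highest of the list, overlapped between the groups. TGM2, TIMP3, FN1, PLAU and CCN2 had the same sign in the first experiment, each past the limma threshold (log2 fold changes -2.14, -1.71, -0.53, -2.23 and 2.97). PLAT, the tissue plasminogen activator, did not. It was at 137 and 193 FPKM in JQ1, against 347 and 414 FPKM in CTRL, but at 644 and 691 FPKM in JQ1, against 243 and 242 FPKM in DMSO.

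Of 27 antigen presentation genes 18 were kept, 12 below and 6 overlapping, with 0 above as deposited. Under TMM factors 10 were below and 1 above, and under equal medians 11 below and 1 above. As deposited, 0 passed the limma test while 8 had an unadjusted p under 0.05. HLA-DRA, an MHC class II chain, was at 30.6 and 31.2 FPKM in JQ1, against 91.7 and 114 FPKM in CTRL. HLA-DRB1 was at 2.38 and 8.54 FPKM in JQ1, against 80.7 and 54.3 FPKM in CTRL, a chain whose reads can be shared with other alleles and paralogs. B2M, the light chain of MHC class I molecules, was at 115 and 226 FPKM in JQ1, against 641 and 302 FPKM in CTRL. In the first experiment 13 of 26 were lower past the limma threshold and 1, B2M, higher. Of 42 interferon-stimulated genes 20 were kept, 8 below (40%) and 2 above (10%), against 23.6% and 16.9% of all genes.

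All 13 protein-coding transcripts of the mitochondrial DNA were above, also under both other scalings, and 0 passed the limma test while 11 had an unadjusted p under 0.05, with a median log2 fold change of 0.73 relative to all genes and estimates of 0.35 to 0.87 as deposited. MT-ATP6, an ATP synthase subunit, was at 10245 and 13698 FPKM in JQ1, against 9535 and 9008 FPKM in CTRL, and MT-CO1, a cytochrome oxidase subunit, at 10131 and 11585 FPKM in JQ1, against 7477 and 7641 FPKM in CTRL. MT genes made up 17.6% and 22.2% of the FPKM of JQ1 libraries and 14.2% and 13.6% of CTRL libraries. In the libraries of the first experiment they made up 6.04% and 6.03% in JQ1 and 5.69% and 5.5% in DMSO, and there 0 of 13 passed the limma threshold and 1 had an unadjusted p under 0.05. Of 76 cytosolic ribosomal protein genes 75 were kept, 27 above and 8 below, with a median of 0.32 relative to all genes. RPS18 was at 1561 and 1691 FPKM in JQ1, against 1073 and 1248 FPKM in CTRL, while RPL19 overlapped at 854 and 1273 FPKM in JQ1 and 1673 and 1058 FPKM in CTRL. Genes of this family have many processed pseudogenes that can share their reads.

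Metabolic and stress lists differed in how they compared with the background of 16.9% above and 23.6% below. The 29 commonly expressed genes kept had 11 below (37.9%) and 5 above (17.2%), or 8 below and 6 above under the other scalings. Of 30 glycolysis and hypoxia genes 27 were kept, 7 above and 7 below, with GAPDH at 2095 and 1945 FPKM in JQ1, against 760.2 and 1047 FPKM in CTRL, and ENO1 at 1449.9 and 1316 FPKM in JQ1, against 1218 and 1201 FPKM in CTRL. Of 35 nuclear genes of oxidative phosphorylation 30 were kept, 6 above and 4 below. Cholesterol synthesis genes had 7 below (43.8%) and 0 above of 16 kept, or 6 below and 1 above under the other scalings, with INSIG1, a brake on this pathway, at 67.8 and 62.9 FPKM in JQ1, against 88.6 and 109 FPKM in CTRL. The unfolded protein and ATF4 list had 7 below (41.2%) and 2 above of 17 kept, but 5 below under TMM factors and 4 under equal medians. MYC targets and ribosome biogenesis had 13 below (46.4%) and 2 above of 28. That became 10 below and 3 above under TMM factors and 9 below and 3 above under equal medians. The MYC, MAX and MXD network had 2 in each direction of 9, or 1 below and 2 above under the other scalings.

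AP-1 and immediate early genes had 5 below (31.2%) and 1 above (6.25%) of 16 kept, against 23.6% and 16.9% of all genes. In the first experiment 9 of 22 were higher past the limma threshold and 3 lower. Of the 5 below here, 3 were higher there and 2 lower past that threshold. IER3, an early response gene and the highest of them, was at 238 and 322 FPKM in JQ1, against 877 and 885 FPKM in CTRL, a log2 fold change of -1.67 ± 0.29 (SE, limma adjusted p = 0.152). DUSP6, a phosphatase that acts on ERK, overlapped at 215 and 292 FPKM in JQ1 and 233 and 207 FPKM in CTRL, though in the first experiment it was higher past the limma threshold (adjusted p = 0.00305). Of 9 p53 targets kept 3 were above, among them the CDK inhibitor gene CDKN1A at 65.2 and 90.2 FPKM in JQ1, against 15.8 and 47.3 FPKM in CTRL, and 1 was below. Apoptosis regulators had 4 in each direction of 17 kept.

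Replication-dependent histone genes lay mostly below in JQ1 against CTRL, without passing the test, while 19 of 32 rose and 1 fell past the limma threshold in JQ1 against DMSO. These genes sit in clusters, are transcribed in S phase, and give mRNAs that end in a stem-loop and mostly lack a poly(A) tail. Of 51 listed, 30 were kept, 21 below, 2 above and 7 overlapping, with a median of -1.02 relative to all genes and 16 of the 30 at an unadjusted p under 0.05. The 2 above were H2AC6 and H4C9, the second of which did not exceed 0.0429 FPKM in any of the 4 libraries. Promoters are shown for H4C12 and H2BC17, which had 2 of the smallest p-values and were below, and for H2AC6, which was above. They are taken 5′ to 3′ from RefSeq (GRCh38.p14), from 250 bases before to 50 bases after the start, and capitals mark TATAAA and the octamer ATGCAAAT on either strand, motifs known from histone promoters. The promoter stretch of H4C12 spans chromosome 6, 27831511 to 27831810 (minus strand). That of H2BC17 spans 27893175 to 27893474 (plus strand) and that of H2AC6 26123922 to 26124221 (plus strand).
H4C12: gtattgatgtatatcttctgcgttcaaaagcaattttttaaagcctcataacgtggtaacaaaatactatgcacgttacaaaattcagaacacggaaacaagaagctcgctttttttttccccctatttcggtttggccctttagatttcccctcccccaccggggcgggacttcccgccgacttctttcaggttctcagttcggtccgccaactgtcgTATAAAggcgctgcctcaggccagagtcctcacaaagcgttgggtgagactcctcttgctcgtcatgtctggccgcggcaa
H2BC17: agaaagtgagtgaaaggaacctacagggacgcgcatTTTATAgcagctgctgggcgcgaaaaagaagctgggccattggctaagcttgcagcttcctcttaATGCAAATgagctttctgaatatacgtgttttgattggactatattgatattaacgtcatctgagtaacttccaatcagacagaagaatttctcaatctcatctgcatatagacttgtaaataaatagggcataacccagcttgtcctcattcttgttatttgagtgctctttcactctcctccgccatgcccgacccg
H2AC6: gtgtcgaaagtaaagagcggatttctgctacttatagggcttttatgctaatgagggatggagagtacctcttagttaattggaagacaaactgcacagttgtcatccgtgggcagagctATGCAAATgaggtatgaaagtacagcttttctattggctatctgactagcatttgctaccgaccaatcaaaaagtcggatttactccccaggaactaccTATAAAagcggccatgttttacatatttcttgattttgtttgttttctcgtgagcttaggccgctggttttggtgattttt
The capitals TTTATA in H2BC17 are TATAAA on the other strand. A promoter was matched for 29 of the 30 histone genes kept, and TATAAA was found in 23 of these (79.3%) and ATGCAAAT in 13 (44.8%), against 11.5% and 1.77% of all 35116 promoters in the table. Among the 21 below, 18 held TATAAA and 9 held ATGCAAAT, and H2AC6 held both, so that these letters did not separate it from the rest.

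H4C12, a histone H4 gene, was at 93.7 and 63.8 FPKM in JQ1, against 564 and 567 FPKM in CTRL, a log2 fold change of -2.85 ± 0.35 (SE, limma adjusted p = 0.0568). H2BC17, a histone H2B gene, was at 58.9 and 104 FPKM in JQ1, against 534 and 620.4 FPKM in CTRL (-2.86 ± 0.38, SE, limma adjusted p = 0.0568). H2AC6 had a log2 fold change of 3.20 ± 0.50 (SE, limma adjusted p = 0.112). The linker histone gene H1-2 was at 659 and 689.7 FPKM in JQ1, against 1019 and 1011 FPKM in CTRL. Against DMSO, H1-2 was at 217 and 216 FPKM in JQ1, against 34.6 and 38.2 FPKM in DMSO, and H2AC6 at 155 and 161 FPKM in JQ1, against 7.75 and 7.10 FPKM in DMSO. H2AC6 had thus the same direction in both experiments, and H1-2 opposite directions. Of the 21 histone genes below, 13 were higher in JQ1 past the limma threshold in the first experiment and 1 lower. The median of the 30 histone genes was 76.4 and 80.6 FPKM in JQ1, against 146 and 294 FPKM in CTRL, and in the first experiment 4.21 and 5.11 FPKM in JQ1, against 1.26 and 1.13 FPKM in DMSO. The level of these genes in CTRL thus stood far above that in DMSO, as did the small RNAs RN7SL1 and SNORD3A, and the part of library preparation in the opposite directions was not tested. Coding sequences of histone genes of one type are nearly identical, so reads may be shared between them and single genes are uncertain.

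**Figure D3:**
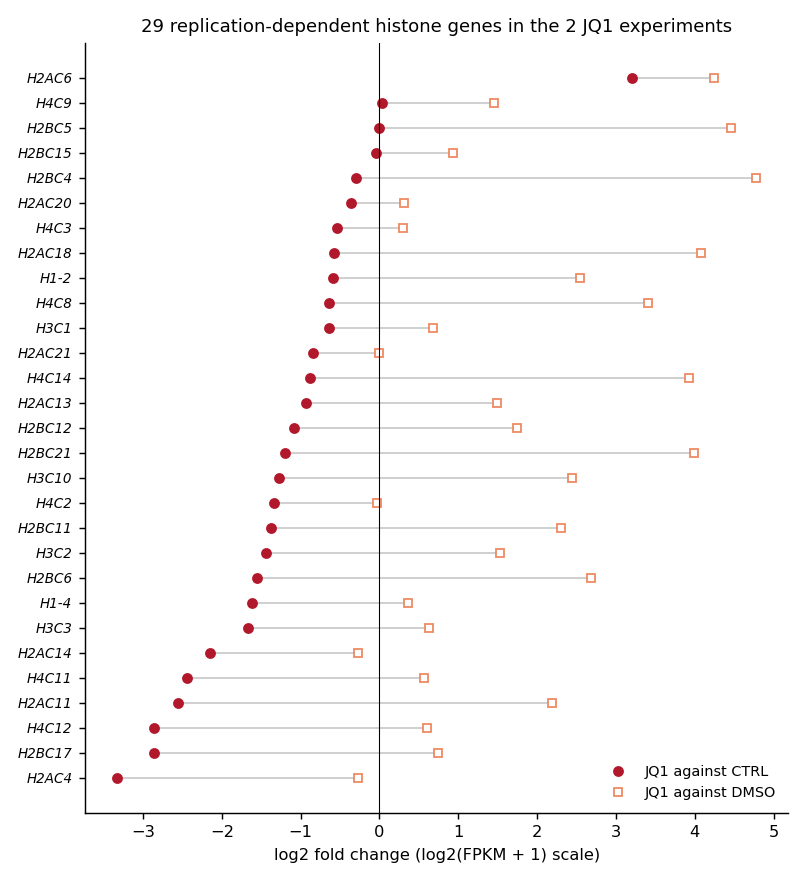
Log2 fold change on the log2(FPKM + 1) scale (x axis) of the 29 replication-dependent histone genes (y axis) fitted in both experiments, JQ1 against CTRL as filled circles and JQ1 against DMSO as open squares, joined by a line per gene. Circles lie mostly below 0 and squares mostly above it, and H2AC6 at the top is well above 0 in both.

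Single genes nearest to the threshold came from several of these groups. Besides the histone genes, adjusted p was 0.0568 for FTL and CST1 (limma), and these genes were picked after their values were seen. FTL, the light chain of the iron store ferritin (ENSG00000087086, chromosome 19, 48965301 to 48966878, plus strand), was at 3364 and 3674 FPKM in JQ1, against 795 and 989.8 FPKM in CTRL, a 3.94-fold higher mean (log2 fold change 1.98 ± 0.24, SE). CST1, a secreted cystatin that inhibits cysteine proteases (ENSG00000170373, chromosome 20, 23747553 to 23751268, minus strand), was at 305 and 370.4 FPKM in JQ1, against 1328 and 2109 FPKM in CTRL, 5.09-fold lower (log2 fold change -2.31 ± 0.30, SE). In both genes JQ1 and CTRL were far apart relative to their own spread, and each had the same sign past the limma threshold in the first experiment (log2 fold changes 1.30 and -0.82). FTL has processed pseudogenes and CST1 close relatives in its gene cluster, whose reads the counting could share. MALAT1, a nuclear long noncoding RNA, was at 457 and 463 FPKM in JQ1, against 68.9 and 116 FPKM in CTRL (limma adjusted p = 0.112). Of 10 nuclear-retained and small structured RNAs 5 were kept, 3 above and 0 below.

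Without a gene past the threshold, the 5 largest estimates in each direction among non-overlapping genes with a mean of at least 5 FPKM were SCOC, VIPR1, PEG10, GET4 and ARFIP2 on the higher side and H2AC12, IL6, UBE2C, SERPINA1 and CAVIN3 on the lower side. PEG10, a gene derived from a retrotransposon, was at 185 and 174 FPKM in JQ1, against 4.34 and 32.5 FPKM in CTRL, and was also higher in JQ1 in the first experiment (33.6 and 32.9 FPKM, against 2.38 and 3.41 FPKM in DMSO, limma adjusted p = 0.00294). VIPR1, a receptor for vasoactive intestinal peptide, was at 65.5 and 63.8 FPKM in JQ1, against 0.602 and 5.59 FPKM in CTRL. In the first experiment it was at 14.5 and 12.3 FPKM in JQ1 and 13 and 14.1 FPKM in DMSO. SCOC, GET4 and ARFIP2 likewise did not pass there (limma adjusted p = 0.340, 0.731 and 0.0817). SERPINA1, the protease inhibitor alpha-1-antitrypsin, was at 0.0635 and 0.651 FPKM in JQ1, against 21.1 and 44.9 FPKM in CTRL, and CAVIN3, a caveolar coat protein, at 2.55 and 0.0412 FPKM in JQ1, against 49.2 and 32.8 FPKM in CTRL. Both were lower past the limma threshold in the first experiment, by 1.08 and 0.87 on the log2 scale. The histone gene H2AC12, which is not in the histone list, at 23.5 and 0.598 FPKM in JQ1 and 168 and 222 FPKM in CTRL, was under 1 FPKM in every library there.

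**Figure D4:**
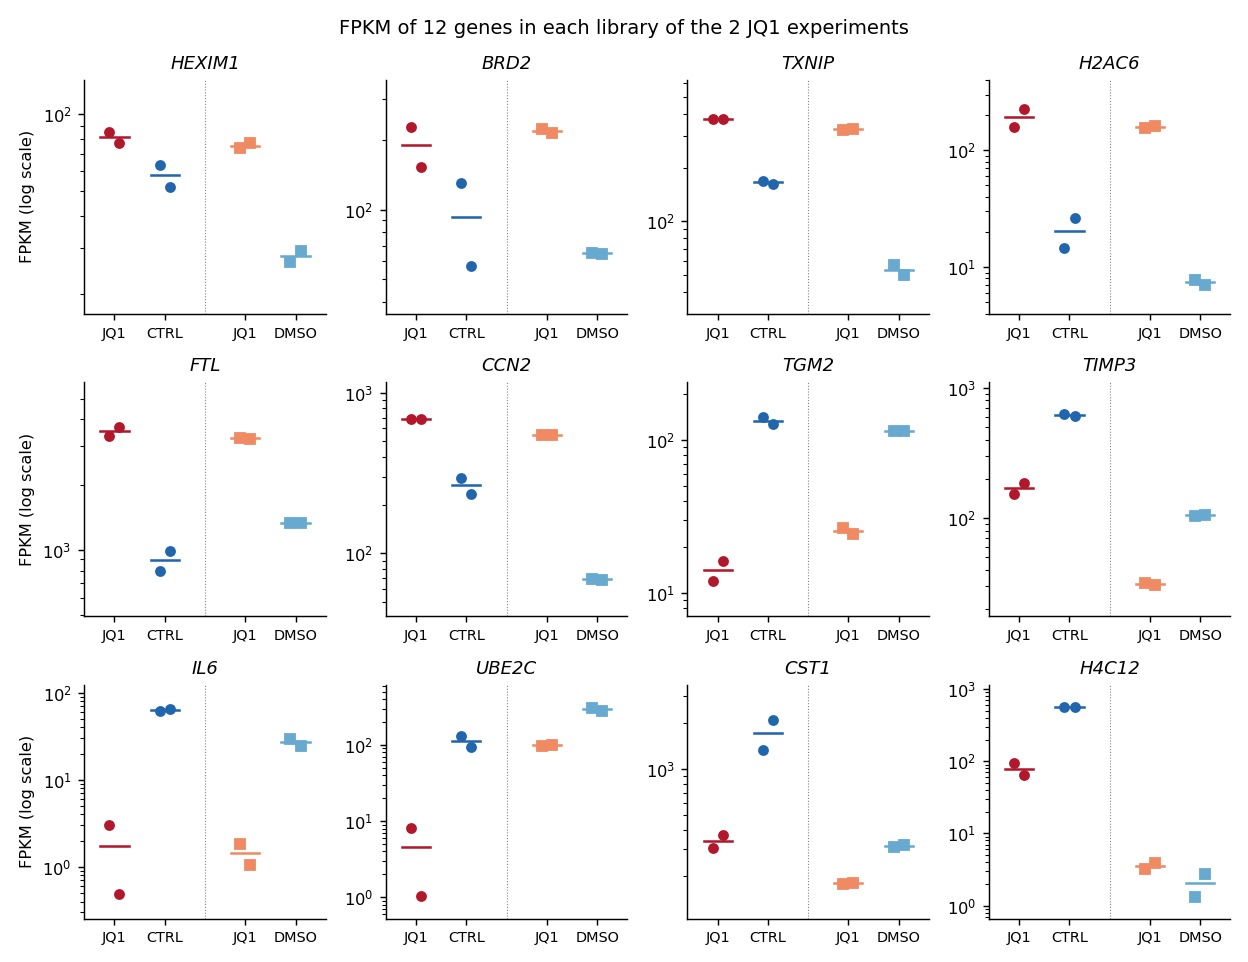
FPKM (y axis, log scale) of 12 genes in each library, JQ1 and CTRL as circles on the left of each panel and JQ1 and DMSO of the first experiment as squares on the right, with a bar at each mean. HEXIM1, BRD2, TXNIP, H2AC6, FTL and CCN2 are higher in both JQ1 groups, TGM2, TIMP3, IL6, UBE2C and CST1 are lower in both, and H4C12 is lower in JQ1 than in CTRL but near 1 to 4 FPKM in both groups of the first experiment.

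Set side by side over the genome, the 2 experiments shared direction most often where the first had the largest changes. Of 861 genes at least 2-fold lower past the limma threshold in JQ1 against DMSO, 329 were kept here, and 292 of these (88.8%) had a negative log2 fold change, 195 below and 7 above, with a median of -1.19. Of 412 genes at least 2-fold higher there, 179 were kept, 135 (75.4%) had a positive log2 fold change, 82 were above and 21 below, with a median of 0.58. Of genes past the threshold but under 2-fold there, 892 of 1192 lower genes (74.8%) and 664 of 1011 higher genes (65.7%) shared the sign. Of the 4918 genes that did not pass there, 46.7% had a positive log2 fold change here. Read from the second experiment, 407 of the 1292 genes above that were fitted in both were higher in the first past the threshold and 93 lower, and of 1807 genes below, 682 were lower and 134 higher, against 15.6% higher and 19.9% lower of all 7629 shared genes. Across genes the log2 fold changes correlated at r = 0.356 over the 7629 and at 0.504 over the 2711 past the threshold in the first experiment, a description only, since genes are not independent replicates.

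**Figure D5:**
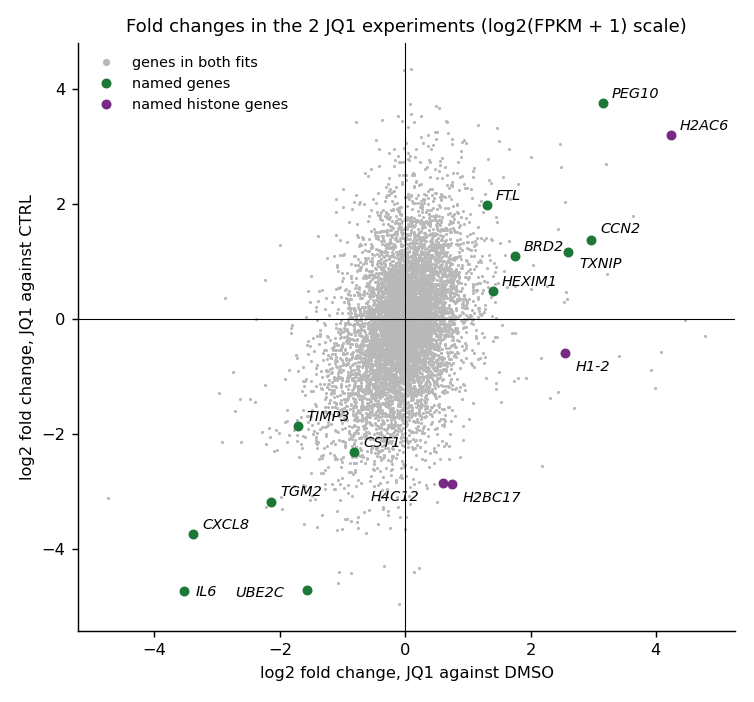
Log2 fold change on the log2(FPKM + 1) scale of the 7629 genes fitted in both experiments, JQ1 against DMSO on the x axis and JQ1 against CTRL on the y axis, with 12 named genes in green and 4 histone genes in purple. Points spread over a wider range on the y axis. The 12 genes in green lie in the lower left or upper right, H2AC6 lies in the upper right, and H1-2, H4C12 and H2BC17 lie in the lower right. Genes outside the histones with opposite signs, PLAT and BIRC3 among them, are not marked.

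Genes listed at 0 in 1 group only were outside the fit. Those of them that passed in the first experiment mostly had the same direction there. At 0 in both JQ1 libraries and above 0 in both CTRL libraries were 273 genes, of which 258 were fitted in the first experiment, 107 lower and 8 higher in JQ1 past the limma threshold. At 0 in both CTRL libraries and above 0 in both JQ1 libraries were 278 genes, of which 264 were fitted there, 63 higher and 8 lower. Of all 20404 genes fitted there, 11.1% were higher and 15.9% lower past that threshold. MFAP2, a microfibril protein picked after its values were seen, was listed at 0 in both JQ1 libraries and was at 52.8 and 19.0 FPKM in CTRL. AQP3, a water and glycerol channel picked likewise, was at 23.3 and 26.0 FPKM in JQ1 and listed at 0 in both CTRL libraries. Since 1902 genes were at 0 in all 4 libraries and 7252 in at least 1, a single 0 here is not evidence that a gene was silent.

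Marker genes of the line and of other cell types were read for the identity of the cells. All 7 genes listed as present in mesenchymal triple-negative lines were kept, 5 of them below, among them moesin (MSN, 174 and 241 FPKM in JQ1, against 426 and 440.4 FPKM in CTRL). Of 11 luminal epithelial markers 4 were kept and 3, the keratins KRT8, KRT18 and KRT19, were above. KRT8 was at 666 and 543 FPKM in JQ1, against 206 and 226 FPKM in CTRL. The 4th, the transcription factor GATA3, overlapped at 7.26 and 3.23 FPKM in JQ1 and 8.14 and 0.944 FPKM in CTRL. EPCAM, an epithelial adhesion molecule, was at 2.02 and 0.478 FPKM in JQ1, against 10.1 FPKM and a listed 0 in CTRL, and ESR1, PGR, FOXA1 and CDH1 were not analysed here. No haematopoietic marker of 11 was kept, the highest being the lysosomal membrane gene LAPTM5 at 2.93 and 0 FPKM in JQ1, against 29.5 and 42.0 FPKM in CTRL. Of 10 markers of fibroblasts and endothelium KDR alone was kept, at 0.537 and 1.64 FPKM in JQ1, against 2.27 and 6.30 FPKM in CTRL.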

How the data were processed

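Cells were grown in DMEM with serum and RNA was taken up in Trizol, per the labels' protocols. The deposited values are FPKM per gene, made by the authors. The submitters' processing notes name CASAVA 1.4, HISAT2 2.1.0, Cufflinks 2.2.1 and the hg38 build, with no roles. From 3 deposited files, 2 were used, without their fold change and p columns. Genes listed above 0 FPKM in all 4 libraries were tested on log2(FPKM + 1) with limma 3.58.1 (trend, R 4.3.3) and Benjamini-Hochberg adjustment over all of them at 0.05. The first experiment was tested in the same way on its own table. Fold changes on this scale understate those of low genes. Depth is unknown, so no counting interval was made. The procedure was tested on simulated data. Tables and figures were made with Python 3.11.15, pandas 2.3.3 and matplotlib 3.10.9.

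Gene locations come from the GENCODE annotation of the same build. The gene lists, and the choice of this experiment, were made with earlier results of these data known. Named genes are HEXIM1, BRD2, BRD3, METTL3, METTL14, WTAP, MYC and SERPINI1, the 2 members with the highest mean of each list, and, had genes passed the threshold, the 10 largest in each direction. Some genes that this rule names are not reported here. With 0 passing, the 5 largest in each direction among non-overlapping genes took their place. Other named genes were chosen after their values were seen, those of smallest p included. Libraries with the same replicate number in JQ1 and CTRL did not deviate together across genes (r = -0.027). With replicates this far apart, that value cannot tell whether the numbers pair them, and the main fit used no pairing. Alternatives were other pseudocounts, filters and scalings, leaving out each library, a replicate block and a fit with the MW_JQ1 libraries.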

Additional observations from a re-analysis of the deposited data

Results flagged for a closer look

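For 20 genes named here, both JQ1 libraries lay on one side of both CTRL libraries and, in the first experiment, both JQ1 libraries on the other side of both DMSO libraries. The difference between the experiments was not tested in any of them. Lying apart in this way does not mean passing the limma threshold, which 0 genes did in JQ1 against CTRL. Over the shared genes, 93 of 1292 above were lower past that threshold in the first experiment, and 134 of 1807 below were higher. How many of all genes lay on opposite sides without regard to that threshold was not counted. Values are log2 fold changes, JQ1 against CTRL first and JQ1 against DMSO second. Under TMM factors and equal medians 14 of the 20 kept both directions, and the other 6, named below, overlapped in 1 of the experiments under at least 1 of these scalings.

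Of the histone genes, H4C12 was at -2.85 and 0.61, H2BC17 at -2.86 and 0.74, H4C11 at -2.44 and 0.56, H2BC21 at -1.19 and 3.99, H2BC12 at -1.08 and 1.74 and H1-2 at -0.59 and 2.54. H4C12 and H4C11 did not pass the limma threshold in the first experiment (adjusted p = 0.176 and 0.269). Their levels there were low, with H4C11 at 3.17 and 3.98 FPKM in JQ1, against 1.30 and 3.14 FPKM in DMSO. H2BC17 was low there as well, at 2.52 and 2.48 FPKM in JQ1, against 1.42 and 0.819 FPKM in DMSO. The median histone gene in CTRL stood above that in DMSO, as did the small RNAs RN7SL1 and SNORD3A, whose part was not tested.

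Lower in JQ1 than in CTRL and higher than in DMSO were also B2M (-1.44 and 0.33), PLAT (-1.22 and 1.46), INSIG1 (-0.58 and 0.56), LDHA, lactate dehydrogenase (-0.36 and 0.34), the chaperone gene HSP90B1 (-0.25 and 0.57) and the interferon-induced gene IFITM3 (-0.13 and 0.17). JQ1 and CTRL overlapped for LDHA and IFITM3 under both other scalings and for HSP90B1 under equal medians.

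Higher in JQ1 than in CTRL and lower than in DMSO were BIRC3 (1.31 and -0.73), CREBBP (0.78 and -0.55), the cytochrome oxidase gene COX7C (0.64 and -0.17), RPS18 (0.49 and -0.15), SMARCA4 (0.46 and -0.3), MT-ATP6 (0.35 and -0.1), CCND1 (0.23 and -0.27) and the glycolytic gene ENO1 (0.19 and -0.27). JQ1 and DMSO overlapped for RPS18 and COX7C under both other scalings and for MT-ATP6 under equal medians. MT-ATP6, like all 13 mitochondrial transcripts, did not pass the limma threshold in the first experiment.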

How the results depend on the processing

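The count of genes past the threshold, 0 for JQ1 against CTRL, was 0 as well under a pseudocount of 0.1, the looser filters, TMM factors, equal medians, the replicate block (where 721 had an unadjusted p under 0.05) and the fit of all 6 libraries of the table (1352). It was 5 with a pseudocount of 5, a mean of at least 1 FPKM, a mean of at least 5 FPKM, and protein-coding genes only, the last chosen after seeing the data. They included FTL, CST1, H2BC17 and H4C12 each time, and all 5 were at least 2-fold. Leaving out a library gave 0 to 52. The share of genes at least 2-fold lower in JQ1 against DMSO that were also lower in JQ1 against CTRL was 88.8%, and 81.2% to 87.5% with a library left out. The share for higher genes was 75.4%, and 68.2% to 73.7% with a library left out. The count for JQ1 against DMSO was 1228 to 2674 with a library left out and 3980 to 5924 otherwise. The causes were not tested. No named gene changed sign in a call. HEXIM1 stayed between 0.35 and 0.64 and BRD2 between 0.51 and 1.69 over 15 settings, called in none. The median of the mitosis and G2/M list minus that of all genes stayed between -2.14 and -1.45.

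With 2 libraries per group and replicates about 1.6-fold apart, small differences are hard to separate from that spread for a typical gene, though genes differ in it, and a value listed at 0 is not a measured absence. Depth is unknown.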
